A study of Homo sapiens with 6 samples.

Results

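The kinesins are motor proteins that turn the energy of ATP into force on microtubules, and 42 of the 26485 genes in the count table carry a symbol of this family. Members were taken by symbol alone, KIF or KIFC followed by a number and, for some, a letter. By their known main role, 15 were classed as mitotic, 15 as transport kinesins and 12 as cilium and other kinesins. All were read in HCC38, a human breast ductal adenocarcinoma line labelled basal-like and triple negative. The silenced group held 1 library with each of 3 siRNAs against CIP2A, siCIP2A#1, siCIP2A#2 and siCIP2A#3. The control group held 1 library with each of the non-targeting siRNAs SCR#2 and SCR#3 and 1 mock library. Oligofectamine was the transfection reagent throughout the series. A sample label gives the mock as reagent alone, whereas the protocol text calls it untransfected. CIP2A encodes an inhibitor of the phosphatase PP2A that is also known for a role in holding broken chromosomes together in mitosis. Nothing in the labels ties the 6 libraries to separate cultures, so every p-value below measures a spread between libraries that may be technical.

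During interphase, plus-end-directed kinesins carry vesicles, organelles and mRNA outward along microtubules, and light chains and adaptors link them to cargo. In mitosis, a largely separate set of kinesins pushes the spindle poles apart, trims microtubule ends, moves chromosomes and builds the midzone where the cell divides. Transcripts of many mitotic kinesins are known to peak in G2 and M phase, and their promoters often pair CCAAT boxes, bound by NF-Y, with a cell cycle homology region (CHR), bound by the DREAM and B-MYB complexes. Transport kinesins are made through the whole cycle.

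Promoters are shown because they hold a difference between the classes that the symbol rule did not use. RefSeq windows from 250 bases before to 50 bases after the start site, in GRCh38.p14, were found for 34 of the 42 kinesins, and KIF5A, KIF13B, KIFC2, KIFC3, KIF19, KIF21B, KIF26B and KIF27 had none. The CHR letters TTTGAA or TTTAAA, searched on both strands, stood in 12 of 15 mitotic windows (80.0%), in 2 of 11 transport windows (18.2%) and in 0 of 8 windows of the other kinesins. They stood in 24.3% of all 27305 RefSeq windows of this length and in 15.5% of the 10614 windows of genes tested for expression. CCAAT, also on both strands, stood in 11 of 15 mitotic windows (73.3%) and in 3 of 11 transport windows (27.3%), against 35.7% of all windows. Both kinds of letters together stood in 10 of 15 mitotic windows (66.7%) and in 1 of 11 transport windows, against 9.49% of all windows. The 100 bases before the start site are printed for 5 mitotic kinesins that hold both, read 5′ to 3′ on the strand of the gene. Capitals mark these letters in either orientation. ATTGG is therefore the CCAAT box read from the other strand. In the same way, TTCAAA is the CHR form with G. No CCAAT overlaps a CHR match in these windows.
KIF11, chr10:92593030-92593129, plus strand: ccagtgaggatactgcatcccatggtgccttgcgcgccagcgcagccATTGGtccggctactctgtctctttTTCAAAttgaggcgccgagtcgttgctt
KIF4A, chrX:70290004-70290103, plus strand: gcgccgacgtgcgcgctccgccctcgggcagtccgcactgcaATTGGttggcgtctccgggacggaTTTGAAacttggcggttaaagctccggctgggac
KIF20A, chr5:138179012-138179111, plus strand: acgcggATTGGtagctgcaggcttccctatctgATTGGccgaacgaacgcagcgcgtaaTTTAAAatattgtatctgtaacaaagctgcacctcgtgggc
KIF18A, chr11:28108157-28108256, minus strand: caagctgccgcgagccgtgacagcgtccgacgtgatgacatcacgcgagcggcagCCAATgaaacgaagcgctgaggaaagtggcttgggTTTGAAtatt
KIF23, chr15:69414249-69414348, plus strand: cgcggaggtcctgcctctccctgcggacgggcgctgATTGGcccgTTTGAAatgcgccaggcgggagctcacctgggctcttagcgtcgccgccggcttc

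From the CCAAT nearest upstream to the CHR match, the distance between first bases was 24 in KIF4A, 25 in KIF11, 26 in KIF20A, 35 in KIF18A and 9 in KIF23. It lay between 23 and 26 bases in 5 of the 10 mitotic windows that hold both, and those are KIF4A, KIF4B, KIF11, KIF14 and KIF20A. KIF4B is an intronless copy of KIF4A, so that pair shares its sequence. For contrast, the same stretch is printed for KIF22, a mitotic kinesin with CCAAT alone, and for 3 transport kinesins. KIF5B has CCAAT here and TTTGAA farther upstream, KIF3B has CCAAT alone, and KIF13A has neither.
KIF22, chr16:29790651-29790750, plus strand: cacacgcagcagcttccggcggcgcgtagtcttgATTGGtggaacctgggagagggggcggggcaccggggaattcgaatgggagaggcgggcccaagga
KIF5B, chr10:32056426-32056525, minus strand: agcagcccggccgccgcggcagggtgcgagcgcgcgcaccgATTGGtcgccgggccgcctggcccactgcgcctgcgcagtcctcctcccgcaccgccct
KIF3B, chr20:32277551-32277650, plus strand: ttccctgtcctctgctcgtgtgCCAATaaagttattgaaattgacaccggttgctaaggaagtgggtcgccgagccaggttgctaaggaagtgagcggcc
KIF13A, chr6:17987636-17987735, minus strand: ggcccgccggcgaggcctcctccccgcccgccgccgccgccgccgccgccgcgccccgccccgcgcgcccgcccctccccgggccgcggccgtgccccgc
A match is a description of letters, and none of the libraries measured binding at these promoters.

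**Figure D1:**
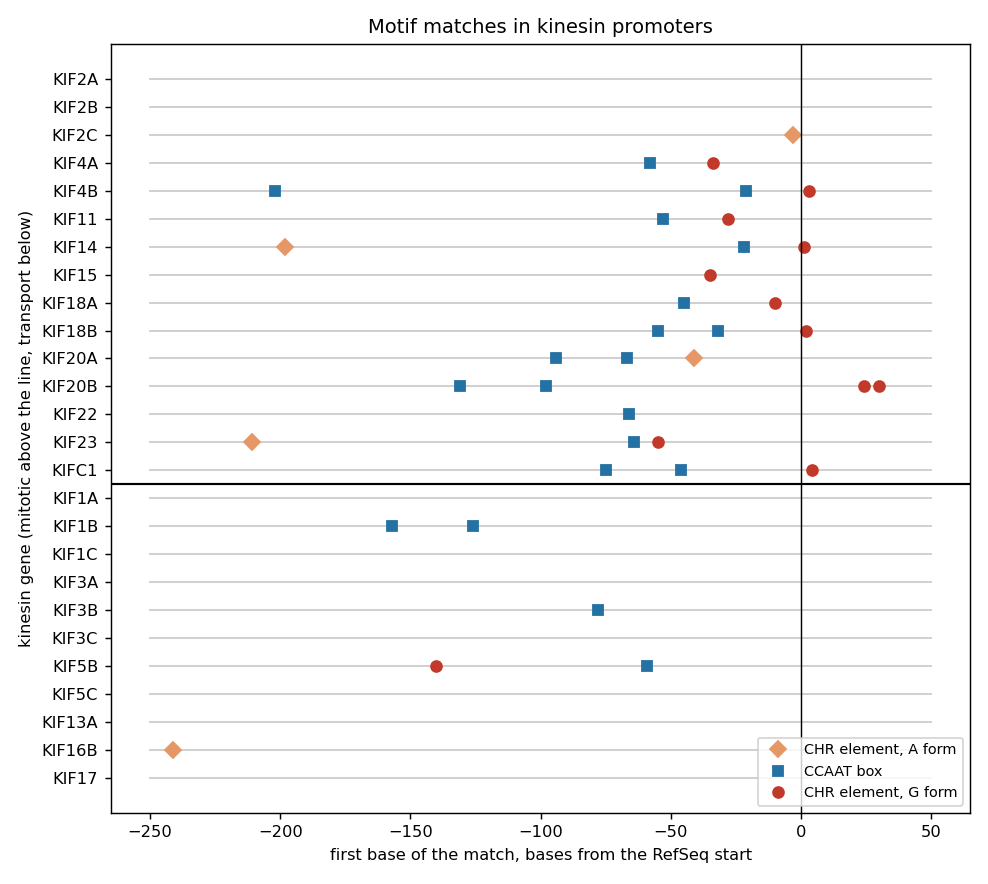
Position of CCAAT boxes (squares) and of the 2 CHR forms (circles and diamonds) relative to the RefSeq start site, in bases, for mitotic kinesins above the line and transport kinesins below it. Most of the 12 mitotic promoters with a CHR match have it close to the start site, downstream of a CCAAT box, whereas 2 of 11 transport promoters have one, both far upstream.

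Total counts ran from 13995187 to 18161451 per library, and the floor of 3 counts equals 0.165 to 0.214 CPM, which is the count scaled to the library total. Values below also carry TMM factors, which ranged from 0.982 to 1.02. After a filter on low counts, 13562 genes were tested, among them 35 of the 42 kinesins: 13 mitotic, 15 transport and 7 others. Among the 7 untested members, KIF2B, a kinesin-13 known mainly from testis, had 0 counts in all 6 libraries, and KIF4B had 2 to 9. KIF6, KIF12, KIF19, KIF25 and KIF26B had at most 9 counts in any library. Reads of KIF4B cannot be told apart from those of KIF4A with certainty, since the treatment of reads that map to both is not given. The same holds for KIF9 and its antisense gene, since no source used here gives the strand setting of the counting. KIF9 had 79, 73 and 63 counts with siCIP2A#1, #2 and #3, and KIF9-AS1 had 76, 91 and 77. Of the epithelial markers, KRT8 and KRT18 were high (252 to 438 and 395 to 708 CPM), whereas EPCAM stayed at 0.44 to 0.75 CPM and CDH1 at 0.15 to 1.22 CPM. The basal keratins KRT5, KRT14 and KRT17 were at 0 to 0.07 CPM, so these keratins were absent or nearly so, whereas EGFR (72.9 to 84.4 CPM) and LAMB3 (131 to 201 CPM) of the same list were present. ESR1 and PGR were at no more than 0.35 CPM, and ERBB2 RNA stood at 48.3 to 74.3 CPM. PTPRC of leukocytes and CDH5 of endothelium were at 0 in every library, and the other leukocyte genes listed reached at most 0.27 CPM (CD14). The other endothelial genes were low but present, PECAM1 at 3.00 to 6.22, KDR at 3.53 to 6.27 and VWF at 0.45 to 1.08 CPM, and all 3 had positive differences with siCIP2A#1 (median log2 difference 0.59, 0 called). Their part in the kinesin values was not tested.

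CIP2A checked the labels. It stood at 16.3, 45.8 and 19.3 CPM with siCIP2A#1, #2 and #3, against 98.8, 99.7 and 103 CPM in the mock, SCR#2 and SCR#3 libraries. The groups did not overlap, and siCIP2A#2 left the most CIP2A RNA. The log2 difference was −1.90 (SE 0.30), with an adjusted p of 0.708 in edgeR's quasi-likelihood test over all genes. It reached −2.50 (adjusted p = 1.2e-05) without the siCIP2A#2 library. Permuting the 6 libraries exactly gave a two-sided p of 0.10, and no smaller value is possible with 3 against 3.

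Scaled by length, the family was led by spindle and midzone motors and by a ubiquitous cargo motor. Levels of different genes are compared as CPM per kilobase of merged exons. In CPM without that scaling KIF5B was highest, averaging 364 in controls, against 243 for KIF20A. KIF20A, which moves the chromosomal passenger complex to the midzone, was highest at 72.1 ± 3.8 CPM per kilobase in siCIP2A libraries and 75.8 ± 5.4 in controls (SD, n = 3 each). KIF5B, the kinesin-1 heavy chain of most tissues, averaged 62.0 ± 3.6 in siCIP2A libraries and 61.9 ± 3.4 in controls. KIFC1, a minus-end-directed kinesin-14 that clusters spindle poles, averaged 62.7 ± 7.1 in siCIP2A libraries and 61.6 ± 5.6 in controls. KIF2C, a microtubule depolymerase of centromeres, and KIF23, the motor of centralspindlin, stood at 60.1 ± 1.8 and 59.4 ± 1.1 in controls. These 4 genes below KIF20A did not differ beyond their spread. KIF4A (50.6 ± 1.3) and KIF22 (48.7 ± 5.9), both chromokinesins, and KIF11 (43.1 ± 0.44), which slides spindle poles apart, came next in controls. The other tested mitotic kinesins ran from KIF2A at 38.2 to KIF15 at 9.0 in controls.

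Below KIF5B, the transport kinesins were lower. KIF3B, a kinesin-2 subunit that serves cilia and vesicles, stood at 36.5 ± 0.95 CPM per kilobase in siCIP2A libraries and 34.1 ± 2.4 in controls. Its partner KIF3A stood at 5.91 ± 0.60 in siCIP2A libraries and 5.78 ± 0.60 in controls, while KIF3C, the alternative subunit, stood at 21.5 ± 1.5 in siCIP2A libraries and 21.7 ± 0.64 in controls. KIF1C (22.4), KIF13A (17.2) and KIF1B (10.3) followed in controls. Members known mainly from neurons were low there: KIF5C at 7.08, KIF17 at 1.65, KIF5A at 1.60 and KIF1A at 0.154. Among the other kinesins, KIF21A, which restrains microtubule growth, stood at 22.7, and KIF24, a centriolar kinesin-13, at 7.98, and no other member of that class exceeded 1.37. Summed over the 13 tested members, mitotic kinesins took 1893, 1790 and 2085 CPM with siCIP2A#1, #2 and #3, against 1960, 1912 and 1941 CPM in the mock, SCR#2 and SCR#3. The 15 transport kinesins took 1437, 1389 and 1446 CPM with the 3 siRNAs, against 1359, 1436 and 1405 CPM in those controls.

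**Figure D2:**
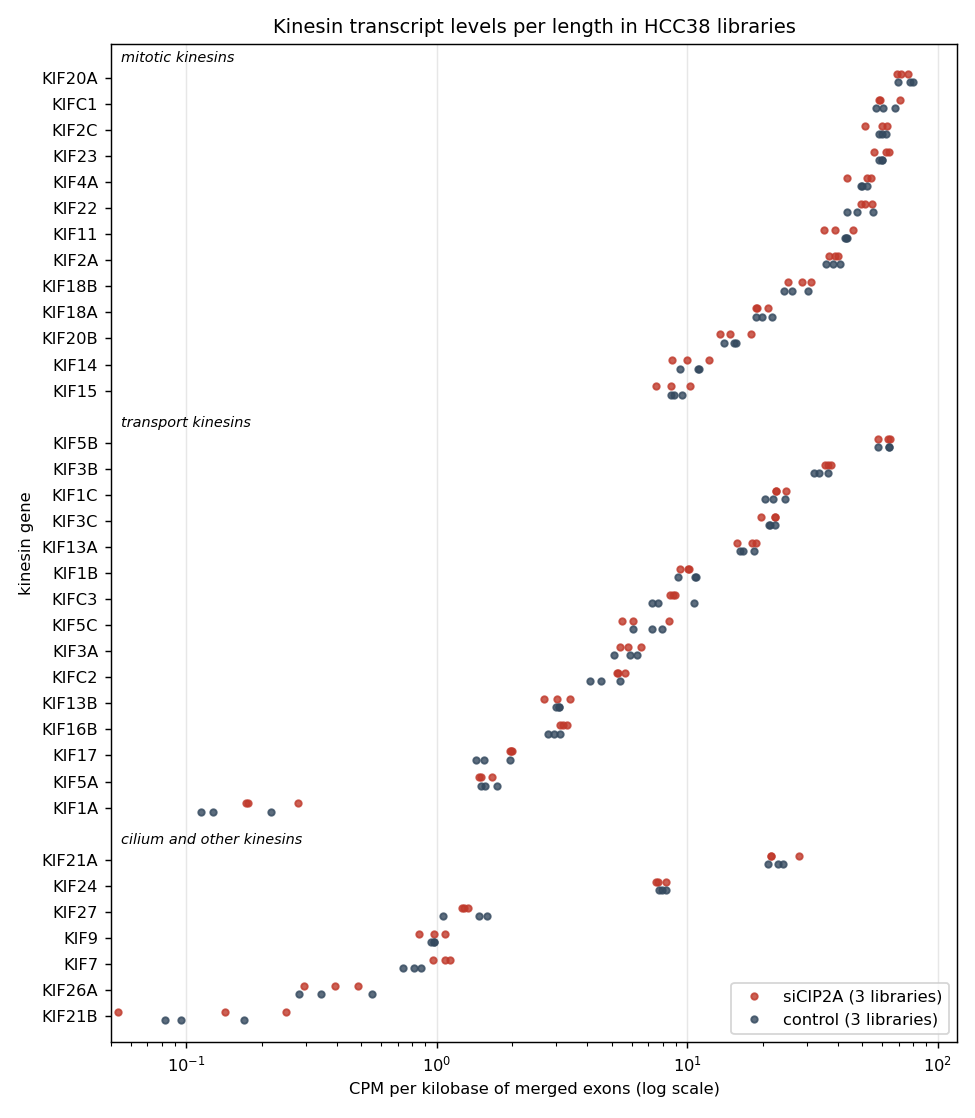
CPM per kilobase of merged exons (log axis) for the 35 tested kinesins, 1 point per library, siCIP2A libraries drawn above controls in each row. The points of both groups overlap in all rows except KIF16B, KIF17 and KIF7, and levels span from 75.8 for KIF20A to 0.116 for KIF21B in controls.

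The comparison of the 3 CIP2A siRNAs with the 3 controls asks what silencing does to these transcripts. No kinesin passed the test. Neither did the silenced gene, CIP2A, so a missing call does not by itself show an unchanged transcript. edgeR called 0 of 35 kinesins and 0.0% of all genes at an adjusted p under 0.05, and 0 kinesins against 2.72% of all genes at an unadjusted p under 0.05. The 3 genes that passed in DESeq2 (0.0221%) held no kinesin. The median log2 difference was −0.02 over the mitotic kinesins (7 of 13 below 0), 0.04 over the transport kinesins (5 of 15 below 0) and 0.0049 over the others (3 of 7 below 0), beside −0.0011 over all tested genes (50.3% below 0). Differences of the mitotic kinesins were narrow, from −0.11 for KIF11 to 0.09 for KIF22. In a culture measured in bulk, fewer cells in a given phase and less RNA per cell cannot be told apart.

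KIF11 stood at 189, 171 and 223 CPM with siCIP2A#1, #2 and #3, against 207, 211 and 210 CPM in the mock, SCR#2 and SCR#3. The controls lay within a few CPM of each other, and the siRNAs lay on either side of them. Its log2 difference of −0.11 (SE 0.10) had a 95% interval from −0.33 to 0.11. KIF20A stood at 220, 229 and 244 CPM with siCIP2A#1, #2 and #3, against 249, 223 and 256 CPM in the mock, SCR#2 and SCR#3, so the groups overlapped (log2 difference −0.07, SE 0.09). KIF23 stood at 233, 210 and 240 CPM with siCIP2A#1, #2 and #3, against 219, 226 and 226 CPM in those controls. KIF4A stood at 227, 189 and 236 CPM with the same siRNAs, against 216, 217 and 226 CPM in the mock, SCR#2 and SCR#3. In KIF23 and KIF4A the siCIP2A#2 library was the lowest of all 6 and the siCIP2A#3 library the highest. KIF2C followed the same pattern at 193, 165 and 202 CPM with siCIP2A#1, #2 and #3, against 201, 189 and 193 CPM in the mock, SCR#2 and SCR#3. KIFC1 stood at 160, 157 and 192 CPM with siCIP2A#1, #2 and #3, against 183, 163 and 153 CPM in the controls, with the mock above the non-targeting siRNAs. KIF22, which pushes chromosome arms from the poles, stood at 138, 153 and 143 CPM with siCIP2A#1, #2 and #3, against 154, 121 and 133 CPM in the controls.

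The log2 differences of the 15 tested transport kinesins ran from −0.08 for KIF5C to 0.47 for KIF1A, and the more abundant ones lay near 0. KIF5B stood at 379, 340 and 373 CPM with siCIP2A#1, #2 and #3, against 341, 376 and 374 CPM in the mock, SCR#2 and SCR#3, a log2 difference of 0.0018 with a 95% interval from −0.18 to 0.18. KIF3B stood at 229, 223 and 217 CPM with the siRNAs, against 195, 224 and 205 CPM in the controls (log2 difference 0.10, SE 0.08). KIF1C, known for carrying integrins and dense-core vesicles, stood at 196, 180 and 179 CPM with the siRNAs, against 195, 175 and 162 CPM in the controls. For KIF1B, a carrier of mitochondria and synaptic vesicle precursors, values were 167, 165 and 154 CPM with the siRNAs, against 151, 178 and 176 CPM in the controls. These 4 genes overlapped between groups. KIF13A, which positions recycling endosomes, gave 140, 161 and 166 CPM with the siRNAs, against 148, 143 and 164 CPM in the controls. KIF3C gave 125, 111 and 125 CPM with the siRNAs, against 120, 125 and 119 CPM in the controls.

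The smallest p belonged to KIF7, the kinesin-4 that organises the tip of the primary cilium for Hedgehog signalling. It stood at 5.14, 4.90 and 4.42 CPM with siCIP2A#1, #2 and #3, against 3.93, 3.68 and 3.32 CPM in the mock, SCR#2 and SCR#3. All 3 siRNA libraries exceeded all 3 controls, and the log2 difference was 0.40 (SE 0.19, unadjusted p = 0.0508 and adjusted p = 0.999 in edgeR). KIF17, a kinesin-2 of dendrites and cilia, stood at 8.17, 8.07 and 8.13 CPM with the siRNAs, against 6.33, 8.06 and 5.90 CPM in the controls. The siRNA libraries were nearly equal, and SCR#2 lay just below them. KIF16B, which moves early endosomes, stood at 19.5, 20.7 and 19.9 CPM with the siRNAs, against 17.5, 19.5 and 18.4 CPM in the controls. With KIF7 and KIF17 it made up the 3 of 35 kinesins (8.57%) whose siRNA values all exceeded the controls, beside 3.25% of all genes. That share rests on near ties: KIF16B had 19.468 CPM with siCIP2A#1 against 19.455 with SCR#2, and KIF17 had 8.067 with siCIP2A#2 against 8.0625 with SCR#2. No kinesin lay wholly below the controls, beside 4.39% of all genes. KIFC2 gave 19.3, 20.7 and 19.1 CPM with the siRNAs, against 19.7, 15.0 and 16.5 CPM in the controls. Low counts limited KIF1A at 2.70, 1.68 and 1.71 CPM with the siRNAs, against 1.24, 1.11 and 2.10 CPM in the controls. KIF21B spread the most, with 2.49, 1.42 and 0.530 CPM with the siRNAs, against 0.946, 0.818 and 1.70 CPM in the controls.

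**Figure D3:**
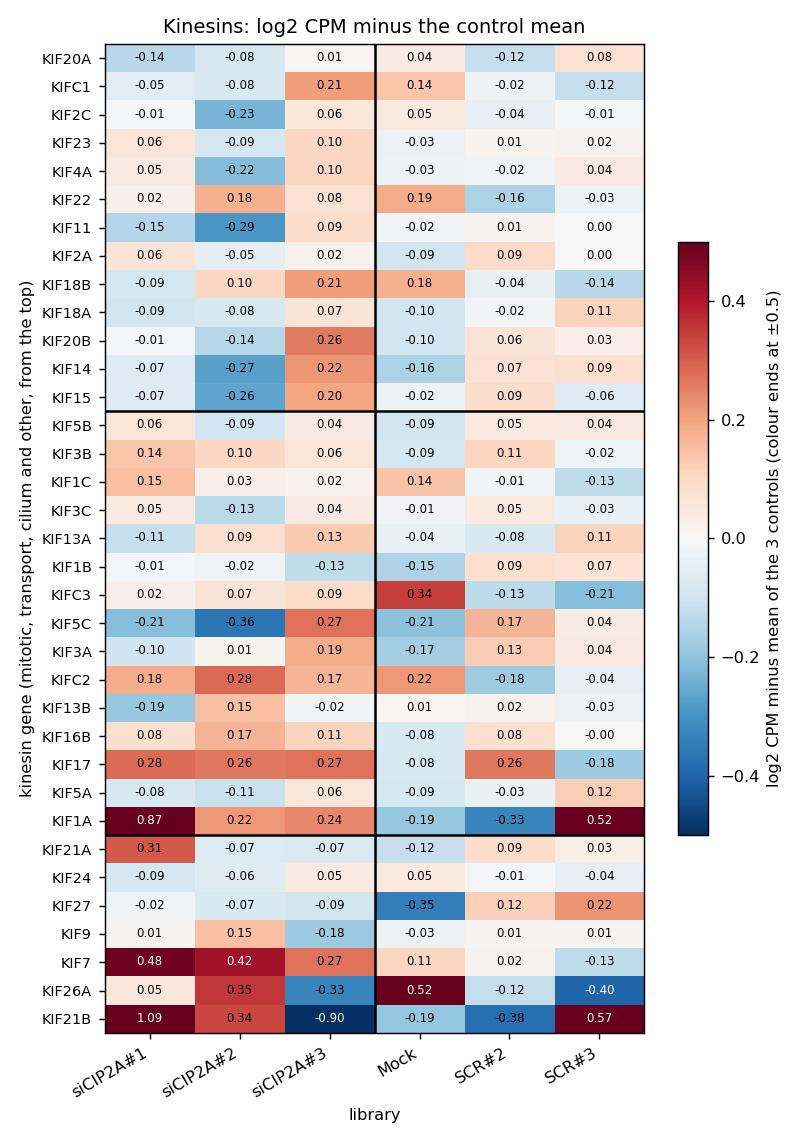
Log2 CPM of each tested kinesin in each library minus the mean of the 3 controls, with siCIP2A libraries left of the upright line and mitotic, transport and other kinesins divided by the level lines. The siCIP2A#3 column is above 0 in all 13 mitotic rows and the siCIP2A#2 column below 0 in 11, and colour ends at ±0.5 although some values, such as those of KIF21B and KIF1A, reach beyond it.

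Taken siRNA by siRNA, the mitotic kinesins lay on opposite sides of the control average with different siRNAs, by small amounts that passed no adjusted threshold. These comparisons share the same 3 controls, and each rests on 1 library assumed to vary as the controls do. With siCIP2A#3, all 13 tested mitotic kinesins had positive log2 differences, with a median of 0.10, beside 48.0% of all genes above 0. Not all exceeded every control: KIF20A stood at 244 CPM there, against 249 in the mock and 256 in SCR#3. With siCIP2A#2, 11 of 13 had negative differences, with a median of −0.09, beside 50.6% of all genes below 0. KIF22 and KIF18B were the exceptions. With siCIP2A#1, 9 of 13 had negative differences, beside 51.2% of all genes. The mitotic class median was −0.06 there, and it was −0.0041 without the mock, −0.035 without SCR#2 and −0.032 without SCR#3. The transport kinesins had medians of 0.05, 0.05 and 0.07 with siCIP2A#1, #2 and #3, with 9, 10 and 13 of 15 above 0. Below 0 were 6, 5 and 2 of them, beside 51.2%, 50.6% and 52.0% of all genes.

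None of the 35 kinesins passed an adjusted p under 0.05 in edgeR with any siRNA, beside 0.118% of all genes with siCIP2A#1, 0.0737% with siCIP2A#2 and 0.00737% with siCIP2A#3. At an unadjusted p under 0.05, siCIP2A#2 gave 4 kinesins (11.4%, beside 11.6% of all genes), all lower: KIF11 (log2 difference −0.29, SE 0.09, adjusted p = 0.342), KIF2C (−0.23), KIF4A (−0.22) and the neuronal kinesin-1 KIF5C (−0.37). siCIP2A#1 gave 4 (11.4%, beside 9.95%), all higher: KIF21A (0.30), KIF21B (1.12), KIF7 (0.50) and KIF1A (0.87). siCIP2A#3 gave 1 (2.86%, beside 8.22%), KIF20B, an M phase phosphoprotein of late cytokinesis, at 0.26 higher. These unadjusted results depended on the test and on the controls used. In DESeq2, only KIF21A with siCIP2A#1 and KIF11 with siCIP2A#2 stayed under that threshold. In edgeR, the kinesins listed with siCIP2A#2 lost theirs when SCR#2 or SCR#3 was left out. Adjusted calls depended on the mock library. Without it, a fit with 1 residual degree of freedom called 13.8%, 22.4% and 9.65% of all genes with siCIP2A#1, #2 and #3. It then called 3 kinesins with siCIP2A#1 (KIF1C, KIF21A and KIF5C) and 2 with siCIP2A#3 (KIF18B and KIFC1). With siCIP2A#2 it called 8, of which KIF11 (−0.30, adjusted p = 0.0013), KIF14, KIF15, KIF2C, KIF4A and KIF5C were lower, KIF22 (0.27, adjusted p = 0.0055) was higher, and KIFC2 also passed. Without SCR#2 or without SCR#3, 0 kinesins were called with any siRNA.

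The siRNAs were also set directly against each other, which needs no control level, although the spread still comes from the controls. siCIP2A#2 was below siCIP2A#3 in 12 of 13 mitotic kinesins, with a median log2 difference of −0.28, beside 48.4% of all genes below 0. edgeR called 0.0% of genes and 0 kinesins at an adjusted p under 0.05, while 7 of 35 kinesins (beside 15.6% of all genes) had an unadjusted p under 0.05, all lower with siCIP2A#2. Of these, 6 were mitotic. KIF14, which recruits citron kinase to the midbody, stood at 63.2 CPM with siCIP2A#2, against 89.0 CPM with siCIP2A#3 (log2 difference −0.49, SE 0.16, adjusted p = 0.222). KIF15, a kinesin-12 that helps hold the spindle bipolar, stood at 37.0 CPM with siCIP2A#2, against 51.0 CPM with siCIP2A#3 (−0.46, SE 0.15, adjusted p = 0.223). KIF11 differed by −0.38 (SE 0.11, adjusted p = 0.196), KIF20B by −0.40, KIF4A by −0.32 and KIF2C by −0.29. KIF5C, the seventh, stood at 37.9 CPM with siCIP2A#2, against 58.9 CPM with siCIP2A#3 (−0.63, SE 0.19, adjusted p = 0.199). The median over transport kinesins in this pair was −0.02, with 9 of 15 below 0. siCIP2A#1 was below siCIP2A#3 in 12 of 13 mitotic kinesins as well, with a median of −0.16, beside 49.6% of all genes below 0. In that pair 0 kinesins were called (0.509% of all genes). At an unadjusted p, 3 kinesins passed there, beside 13.6% of genes. siCIP2A#1 against siCIP2A#2 gave 0 called kinesins (0.0147% of all genes) and 2 at an unadjusted p (12.1% of all genes), KIF21A and KIF4A, both higher with siCIP2A#1.

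**Figure D4:**
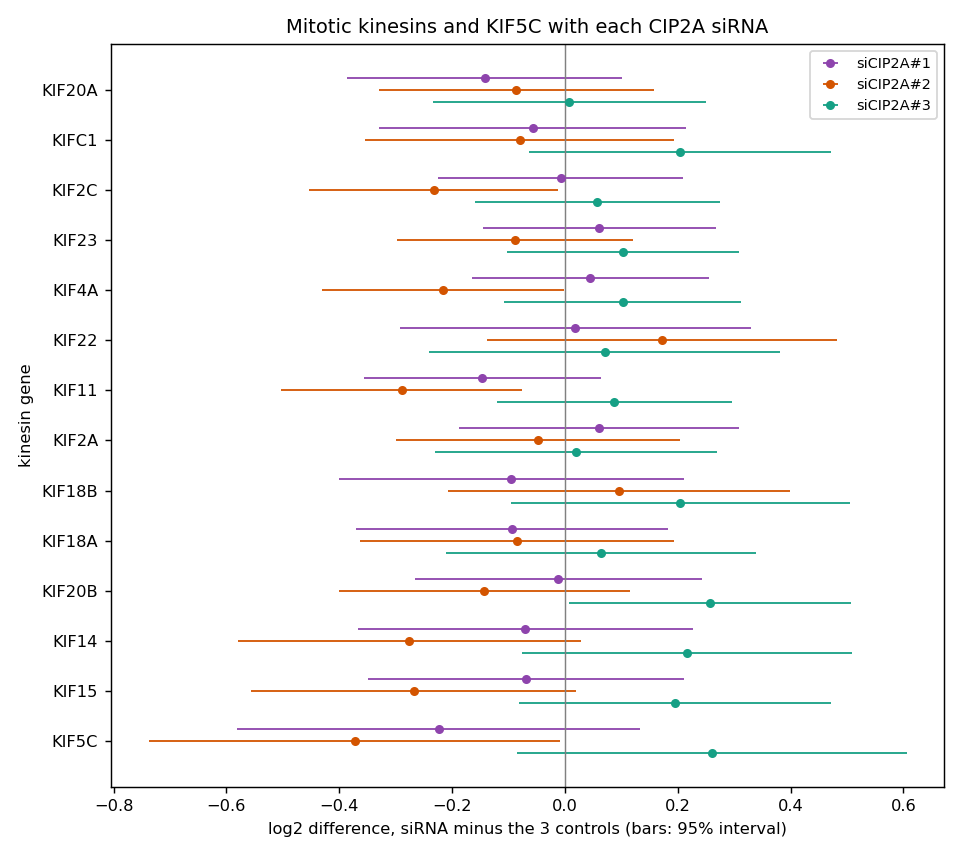
Log2 difference of each siRNA from the 3 controls for the 13 tested mitotic kinesins and KIF5C, with 95% intervals from edgeR, not adjusted for the number of genes. siCIP2A#3 points lie to the right of 0 in every row shown, from 0.0081 for KIF20A to 0.26 for KIF5C, and the intervals of siCIP2A#2 exclude 0 for KIF11, KIF2C, KIF4A and KIF5C.

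By their list medians, other mitotic transcripts gave the same order of the 3 siRNA libraries as the mitotic kinesins. Single genes did not all follow it: PRC1 and MKI67 were lowest with siCIP2A#1, and AURKA with siCIP2A#3. The class median of log2 CPM minus the control mean was −0.05, −0.09 and 0.10 for mitotic kinesins with siCIP2A#1, #2 and #3, against −0.02, −0.02 and 0.0019 in the mock, SCR#2 and SCR#3. The SD of these medians was 0.10 over siRNA libraries and 0.01 over controls. Gene by gene the contrast was smaller: the SD of log2 CPM had a median of 0.15 in siRNA libraries and 0.09 in controls. A list of 18 non-motor mitotic partners, among them PRC1, which bundles midzone microtubules and is carried by KIF4A, and the spindle assembly factor TPX2, had medians of −0.12, −0.15 and 0.08 with siCIP2A#1, #2 and #3, against 0.01, −0.04 and 0.0084 in the controls. A list of 10 proliferation genes, among them MKI67 and TOP2A, had medians of −0.15, −0.19 and 0.02 with the siRNAs, against 0.01, −0.03 and 0.02 in the controls. Whether a shift in cell cycle phases accompanies the kinesin values was not tested. For transport kinesins the medians were 0.05, 0.07 and 0.09 with the siRNAs, against −0.08, 0.05 and −0.0026 in the mock, SCR#2 and SCR#3, so that their spread between controls (SD 0.06) exceeded that between siRNAs (SD 0.02). The mitotic minus transport gap was −0.10, −0.15 and 0.01 with siCIP2A#1, #2 and #3, against 0.06, −0.06 and 0.0045 in the mock, SCR#2 and SCR#3. Only siCIP2A#1 and siCIP2A#2 fell outside the range of the 3 controls. Each control is part of the mean it is set against, which narrows that range, so this is a description and no test.

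**Figure D5:**
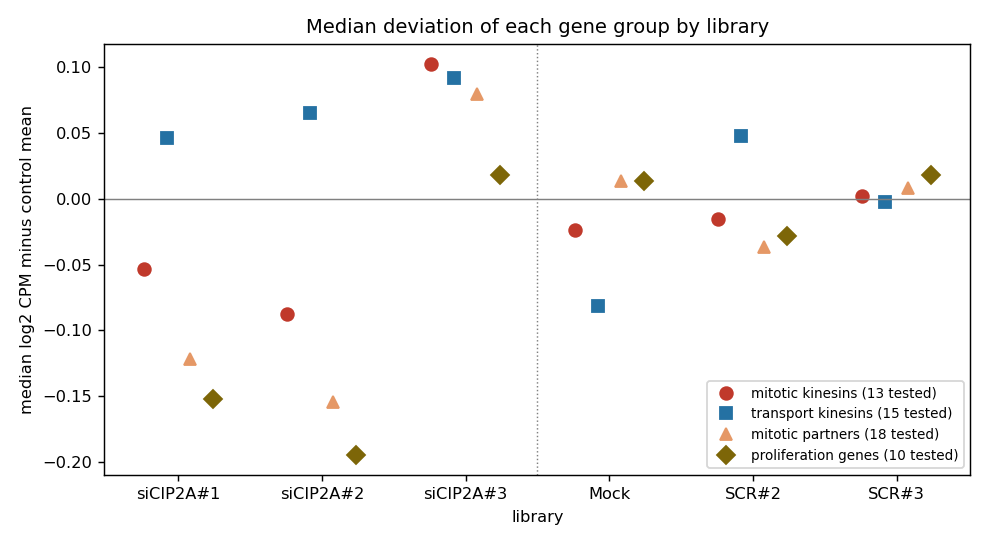
Median of log2 CPM minus the mean of the 3 controls, by library, for mitotic kinesins, transport kinesins, mitotic partners and proliferation genes. Mitotic kinesins and mitotic partners lie below 0 with siCIP2A#1 and siCIP2A#2 and above 0 with siCIP2A#3, while transport kinesins lie above 0 with all 3 siRNAs and lowest in the mock (−0.08).

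Partners and relatives of the family gave no call in the 3 against 3 comparison. CENPE, the kinesin-7 of kinetochores that its symbol keeps out of the rule, stood at 142, 120 and 172 CPM with siCIP2A#1, #2 and #3, against 139, 154 and 158 CPM in the mock, SCR#2 and SCR#3. It had the pattern of the mitotic kinesins, lowest with siCIP2A#2 (−0.32, unadjusted p = 0.02 and adjusted p = 0.362 in edgeR) and highest with siCIP2A#3 (0.20). STARD9, a centrosomal kinesin outside the rule, stood at 24.7, 27.2 and 34.0 CPM with the siRNAs, against 28.5, 26.5 and 28.9 CPM in the controls. PRC1 stood at 208, 211 and 257 CPM with the siRNAs, against 252, 250 and 265 CPM in the controls (log2 difference −0.18, SE 0.10). KNSTRN, a protein of spindle and kinetochores, stood at 122, 99.4 and 129 CPM with the siRNAs, against 132, 130 and 136 CPM in the controls (−0.19, SE 0.10). Every siRNA library of KNSTRN lay below the controls, as did those of CCNB1 and AURKA among the proliferation genes and of KLC1 and MAP7D3 among the transport partners, beside 4.39% of all genes. CCNB1, the mitotic cyclin, stood at 370, 365 and 397 CPM with the siRNAs, against 425, 405 and 427 CPM in the controls. Of 18 mitotic partners 12 lay below 0 (median −0.03), and of 10 proliferation genes all 10 did (median −0.11), with 0 called in either list, beside 50.3% of all genes below 0. NUSAP1 (−0.14) and HMMR (−0.13) overlapped. Among 21 transport partners, 12 lay above 0 (median 0.04) and 0 were called. KLC1, the main kinesin-1 light chain, stood at 231, 219 and 198 CPM with the siRNAs, against 234, 250 and 241 CPM in the controls (−0.16, SE 0.09). TRAK2, which couples kinesin-1 to mitochondria, stood at 98.8, 95.8 and 110 CPM with the siRNAs, against 106, 122 and 117 CPM in the controls (−0.18, SE 0.10). MAPK8IP3 (0.30), a kinesin-1 cargo adaptor, and MAP7D1 (0.14), which recruits kinesin-1 to microtubules, had positive differences.

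Among the controls, the non-targeting siRNAs against the mock gave 0.0% of genes and 0 kinesins at an adjusted p under 0.05. At an unadjusted p under 0.05 there was 1 kinesin (2.86%, beside 6.31% of all genes). It was KIFC3, a minus-end-directed kinesin-14 of Golgi and cell junctions, at 37.7 and 35.6 CPM with SCR#2 and SCR#3, against 52.5 CPM in the mock (log2 difference −0.52, SE 0.14, adjusted p = 0.61). With siCIP2A#1, #2 and #3 it stood at 42.0, 43.2 and 44.0 CPM, between those levels. The spread of log2 CPM was larger among siRNA libraries than among controls in 8 of 13 mitotic kinesins (61.5%), in 5 of 15 transport kinesins (33.3%) and in 64.2% of all tested genes.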

How the data were processed

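Poly(A) RNA of 6 HCC38 libraries was sequenced after a stranded TruSeq preparation, per the labels' protocols. The deposited table holds raw counts as whole numbers for each gene, with a column for each library, per the file headers. The tools STAR 2.5.4b, Subread 1.5.1 and bcl2fastq 2.17 and the build hg38 are named in the submitters' processing notes. The annotation, the strand setting and the treatment of reads that map to more than 1 place were not given in the sources used here. Genes were filtered with filterByExpr (minimum count 10) and library sizes adjusted by TMM. Two-sided tests came from edgeR 4.0.16 in R 4.3.3 (glmQLFit with robust settings, glmQLFTest), with Benjamini-Hochberg adjustment over 13562 genes. The fits had 4 residual degrees of freedom for siCIP2A against controls, 3 for non-targeting siRNA against mock and 2 for single siRNAs. DESeq2 1.42.0 and limma-voom (limma 3.58.1) were alternatives. Log2 CPM had a prior count of 2. Exon lengths came from GENCODE basic transcripts, promoters and positions from RefSeq GRCh38.p14. Kinesin protein sequences were not analysed here. Members, classes and partner lists were chosen with earlier results of these data known. Values per library are given for the 6 mitotic and 6 transport kinesins with the highest CPM, the 10 kinesins with the smallest p, called members and up to 4 genes per partner list with the smallest p. KIF14, KIF15, KIF5C and KIFC3 were named for their p in single contrasts. Same-numbered libraries deviated together with correlations of −0.12, −0.13 and 0.0076, so the numbers do not pair them. Counting floors and intervals cover counting error or library spread alone.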

Additional observations from a re-analysis of the deposited data

Results flagged for a closer look

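CIP2A was lower in the siCIP2A#1 library than in the siCIP2A#2 library by a log2 difference of −1.49, past the adjusted threshold in edgeR. That test sets 1 library against 1 other, with the spread taken from the controls, so it compares these libraries and not the siRNAs. It stood at 16.3 CPM with siCIP2A#1 and at 45.8 CPM with siCIP2A#2. No kinesin passed that threshold between siRNA libraries. Medians of log2 CPM minus the control mean over mitotic kinesins did not follow the remaining CIP2A RNA in order. The lowest, −0.09, came from the library with the most CIP2A RNA, siCIP2A#2. The highest, 0.10, came from siCIP2A#3, at 19.3 CPM of CIP2A. The siCIP2A#1 library, with the least CIP2A RNA, lay between them at −0.05. Whether silencing depth plays a part was not tested, and with 1 library per siRNA the siRNA and the depth of silencing cannot be told apart.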

How the results depend on the processing

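The replicate numbers do not pair the libraries. With them as a block, 1 gene was called in siCIP2A against controls (CIP2A, −2.03, adjusted p = 0.0345), and no kinesin. DESeq2 called 3 genes there, and no filter gave 3. For single siRNAs DESeq2 called 75 genes with siCIP2A#1, 61 with siCIP2A#2 and 29 with siCIP2A#3, and 0 kinesins. Leaving out 1 library at a time, genes called ranged from 0 to 1 in siCIP2A against controls, from 85 to 1896 with siCIP2A#1, from 40 to 3088 with siCIP2A#2 and from 32 to 1330 with siCIP2A#3. Called kinesins ranged over these from 0 to 3, from 0 to 8 and from 0 to 2 for the same siRNAs, the upper ends without the mock. The CIP2A log2 difference ranged from −2.50 to −1.63.

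Leaving out 1 control at a time, the mitotic median ranged from −0.035 to −0.0041 with siCIP2A#1 and from −0.13 to −0.11 with siCIP2A#2. It then ranged from 0.090 to 0.12 with siCIP2A#3. With all controls it was −0.057, −0.088 and 0.10 with siCIP2A#1, #2 and #3, outside those ranges for siCIP2A#1 and #2. With siCIP2A#2 it was −0.12 when KIF2A was left out. The transport median of siCIP2A against controls ranged from −0.012 (without siCIP2A#3) to 0.068. These per-siRNA medians were chosen after seeing the data.

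Signs of small, uncalled differences turned when 1 library was left out. For siCIP2A against controls the ranges were −0.012 to 0.081 for KIF23, −0.080 to 0.073 for KIF4A, −0.12 to 0.024 for KIF2C, −0.070 to 0.10 for KIFC1, −0.043 to 0.047 for KIF5B, −0.00022 to 0.14 for KIF1C, −0.014 to 0.11 for KIF13A, −0.042 to 0.044 for KIF3C, −0.25 to 0.79 for KIF21B, −0.20 to 0.065 for CENPE and −0.11 to 0.13 for STARD9. KIF5B was at −0.043 with the mock as a separate level. With siCIP2A#1 they were −0.059 to 0.019 for KIF20B, −0.060 to 0.12 for KIF22, −0.029 to 0.015 for KIF2C and −0.12 to 0.014 for KIFC1. With siCIP2A#2, KIF1A ranged from −0.0028 to 0.52. With siCIP2A#3, KIF20A ranged from −0.049 to 0.048 and KIF22 from −0.0067 to 0.17. The cause was not tested. Of 806 recomputed differences of single genes other than CIP2A, 768 kept their direction and side of the threshold, 27 changed sign and 11 passed the threshold anew. Counts of called genes, class medians and CIP2A are not among the 806, and several of them moved, as given above.

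Values of single siRNAs rest on 1 library each, with 2 residual degrees of freedom. Members with few counts, such as KIF1A and KIF21B, have wide intervals.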

Other observations

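Dynein, the minus-end-directed motor that works against most kinesins, and its activator dynactin gave 0 calls among 23 tested genes, 14 of 23 below 0 and a median difference of −0.03 on the log2 scale. DYNC1H1, its heavy chain, stood at 1677, 1816 and 1687 CPM with siCIP2A#1, #2 and #3, against 1790, 1822 and 1818 CPM in the mock, SCR#2 and SCR#3. BICD2, an adaptor that joins dynein to dynactin, stood at 97.7, 86.7 and 101 CPM with the siRNAs, against 80.8, 87.7 and 79.8 CPM in the controls (log2 difference 0.20, SE 0.10). DYNLT1, a light chain, stood at 69.8, 58.6 and 67.8 CPM with the siRNAs, against 72.2, 73.3 and 73.9 CPM in the controls, all siRNA libraries below all controls, beside 4.39% of all genes (−0.16, SE 0.10). DCTN5, a dynactin subunit, lay above the controls in all 3 siRNA libraries (0.13), beside 3.25% of all genes, and DYNC1I1, a low intermediate chain, had a difference of −0.49 (SE 0.30).

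COL1A1, a fibroblast marker, stood at 14.4, 6.58 and 4.89 CPM with siCIP2A#1, #2 and #3, against 5.38, 5.08 and 4.61 CPM in the mock, SCR#2 and SCR#3. PDGFRB of the same list stood at 2.38, 1.36 and 0.71 CPM with the siRNAs, against 0.95, 1.64 and 0.75 CPM in the controls. COL1A2 stood at 0.87, 0.45 and 0.29 CPM with the siRNAs, against 0.95, 0.58 and 0.75 CPM in the controls. With siCIP2A#1, all 3 tested fibroblast genes had positive differences (median 1.06 and highest 1.52 on the log2 scale). The rise was not particular to them, since the 6 tested epithelial genes had a median of 0.46 with that siRNA. With siCIP2A#3, the medians of the fibroblast, endothelial and epithelial lists were −0.68, −0.38 and −0.28. The part of these lists in the kinesin values was not tested. LUM and COL3A1 stayed at no more than 0.19 CPM in every library, and DCN at 0.22 to 0.71 CPM.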
